A study of Mus musculus with 10 samples.

Results

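The genes described here are Trp53, which encodes the tumour suppressor p53, and 9 genes that stand close to it: Cdkn1a, Mdm2, Ccng1, Bax, Bbc3, Phlda3, Eda2r, Sesn1 and Sesn2. They were chosen by symbol, with earlier results of these data known but by no threshold on their values, and are 10 of the 54232 genes in the table. All 10 were among the 14289 genes with a mean level high enough to be tested. RNA was measured by sequencing in gastrocnemius, a striated muscle of the hind limb, from 5 desmin knock-out mice (genotype Des -/-) and 5 wild-type littermates (Des wt/wt) of a B6J strain with 129Sv as donor of the desmin allele (Destm1Cba/Cscl), all 3 months old. Desmin is the muscle intermediate filament protein. The allele is constitutive, so desmin is missing from every tissue of these animals. The sex of the mice is not in the labels. The labels name gastrocnemius alone, and the text of the study also names plantaris, so that the tissue may hold both muscles. The study's methods speak of pooling the RNA of a genotype, whereas the sample titles tie each column of the table to 1 mouse, and the columns were treated here as separate mice. Whole muscle was used, so that fewer cells of a type and less RNA per cell cannot be told apart.

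p53 is a transcription factor that is kept low by the ubiquitin ligase MDM2 and is stabilised after DNA damage and other stress. It is regulated mostly at the protein level, and its activity is therefore commonly read from the RNA of its targets. These targets halt the cell cycle (Cdkn1a), start the mitochondrial pathway of apoptosis (Bax, Bbc3), restrain growth signalling (Sesn1, Sesn2, Phlda3) or feed back on p53 itself (Mdm2, Ccng1). In skeletal muscle, p53 targets are known to respond to denervation, disuse and regeneration.

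p53 binds a motif made of 2 adjacent copies of a 10-base sequence. The RefSeq promoter windows (250 bases before to 50 bases after a transcript start, build GRCm38.p6) were searched for this consensus, which reads the same on both strands. Pairs with bases between the 2 copies were not searched. The 10 genes had 14 windows. An exact 10-base copy occurred in 6 of these windows, belonging to 6 genes (Trp53, Cdkn1a, Mdm2, Ccng1, Bax and Sesn1), against 8.36% of all 32851 windows. A 20-base match with at most 1 mismatch occurred in Cdkn1a and Ccng1, against 0.0883% of all windows. The following stretches show these matches beside that of Eda2r, the other gene that differed between the genotypes. The stretches are chr17:29090908-29090967 on the plus strand (Cdkn1a), chr11:40755442-40755501 on the minus strand (Ccng1) and chrX:97377392-97377451 on the minus strand (Eda2r). Capitals mark the best 20-base match within each, which lies at chr17:29090928-29090947, chr11:40755462-40755481 and chrX:97377412-97377431. It starts 51 bases before the transcript start of that window in Cdkn1a, 195 before it in Ccng1 and 222 before it in Eda2r. Cdkn1a had another window, for a different transcript start (chr17:29093519-29093818). That window held no exact 10-base copy, and its best 20-base match had 5 mismatches.
Cdkn1a: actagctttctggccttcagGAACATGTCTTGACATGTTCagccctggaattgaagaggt
Ccng1: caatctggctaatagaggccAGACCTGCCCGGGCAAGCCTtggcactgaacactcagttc
Eda2r: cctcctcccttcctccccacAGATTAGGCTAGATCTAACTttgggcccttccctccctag
The Cdkn1a and Ccng1 sequences each had 1 mismatch to the consensus. The Eda2r sequence had 6, beside a median of 5 for the best match in all windows. A match is a description of these letters, and the absence of one says only that they do not occur in this window.

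The values are regularised log values (rlog), which are counts on a log2 scale in which noisy genes are drawn towards their mean. A difference of 1 is thus a doubling, and changes of weakly expressed genes are understated. The targeted gene Des lay between 11.76 and 11.89 in the knock-out mice and between 16.10 and 17.74 in the wild-types. The wild-type mouse 3 stood apart from the other libraries. Its mean correlation with the other wild-types was 0.982, against 0.989 to 0.991 for the others in that group and 0.996 to 0.997 among knock-outs, and its summed signal was 1.48 times the median. Leading markers of skeletal muscle were abundant in every mouse, with a summed level of 22.05 to 22.24 in knock-outs and 22.27 to 23.24 in wild-types.

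Among the 10 genes, Cdkn1a and Eda2r were higher in the desmin knock-out mice, and none of the others passed the test. This count of 2 higher and 0 lower comes from limma, with p-values adjusted across the whole set of tested genes and a limit of 0.05. In the whole table, 7.7% of tested genes were called higher and 5.99% lower. At an unadjusted p under 0.05, 4 of the 10 were higher and 1 was lower. The shares of 7.7% and 5.99% do not apply to this looser limit. Sesn1, with an unadjusted p of 0.0497 in limma, ranked 3940 among the 14289 tested genes in order of p. At least that many genes therefore passed the looser limit, in either direction. The share in each direction was not computed, so the counts of 4 and 1 are not a result about the 10. The median difference of the 10 was 0.15, against -0.0029 over all tested genes. In 2 of the 10 genes the genotypes did not overlap, against 14.4% of all tested genes.

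**Figure D1:**
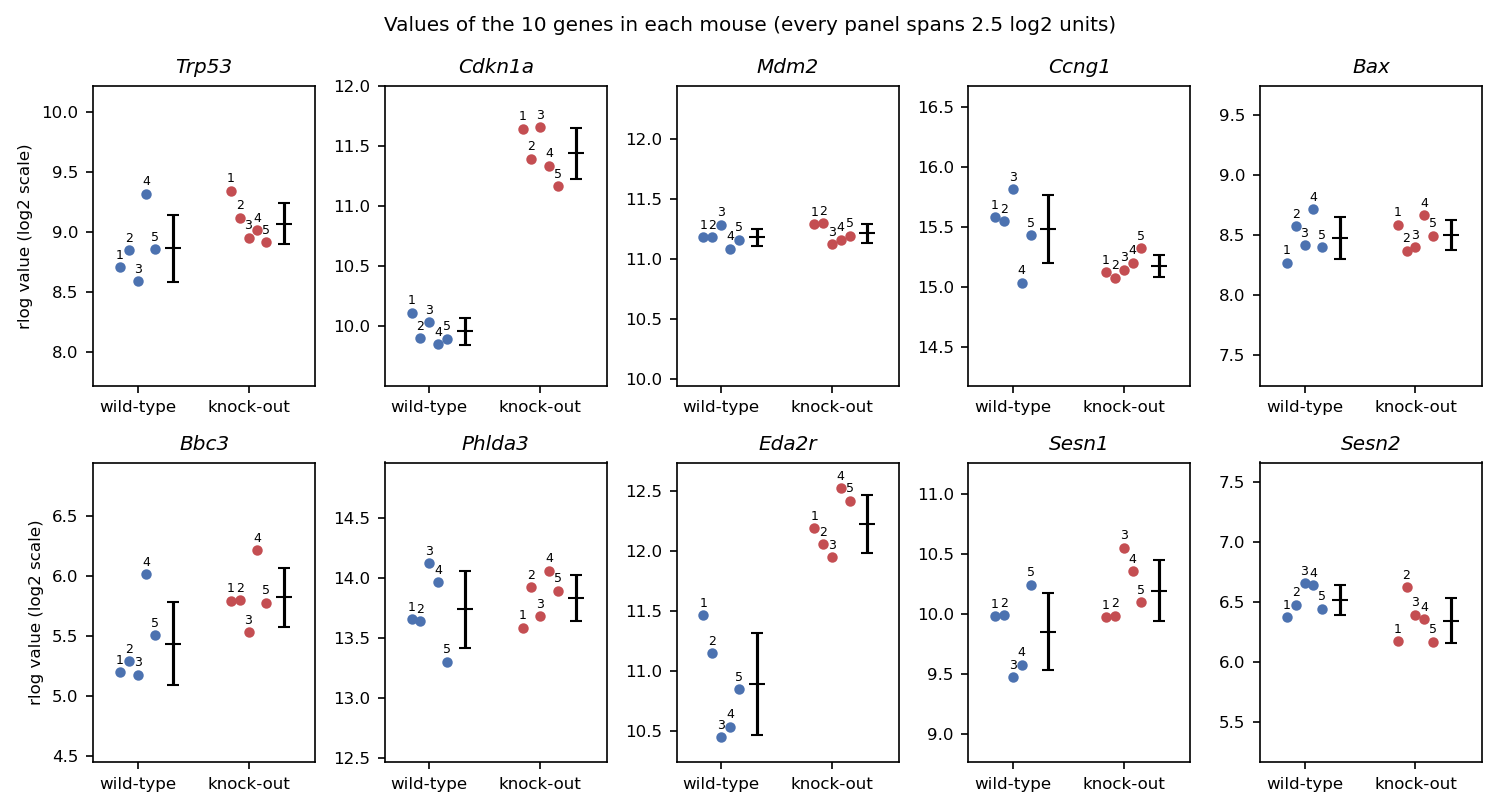
Values of the 10 genes in each mouse (rlog, log2 scale, y axis) by genotype, each numbered point a mouse and each bar the mean with its SD (n = 5 per genotype). The 5 knock-outs lie above all wild-types for Cdkn1a and Eda2r, and the groups overlap for the other 8 genes.

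Trp53 itself was not called. Its values were 9.35, 9.12, 8.96, 9.02 and 8.92 in knock-out mice 1 to 5 and 8.71, 8.85, 8.59, 9.32 and 8.86 in wild-type mice 1 to 5. Wild-type mouse 4 lay inside the knock-out range, while the other wild-types were lower than every knock-out. The difference was 0.20 ± 0.14 (SE, n = 5 per genotype, limma adjusted p = 0.355), with a 95% confidence interval from -0.088 to 0.50. Mdm2, which encodes the ligase that degrades p53, had the smallest SD of the 10 genes in both genotypes (0.077 and 0.072). It measured 11.28, 11.29, 11.12, 11.16 and 11.19 in the knock-outs and 11.18, 11.18, 11.28, 11.08 and 11.16 in the wild-types. The groups covered nearly the same range, and the difference of 0.033 had an interval from -0.136 to 0.203 (limma adjusted p = 0.816).

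Cdkn1a, which encodes the cyclin-dependent kinase inhibitor p21, rose most. Its values were 11.65, 11.40, 11.66, 11.34 and 11.17 in the knock-out mice and 10.11, 9.90, 10.03, 9.85 and 9.90 in the wild-types. The lowest knock-out was higher than the highest wild-type by more than the range within either group. The means were 11.44 ± 0.21 and 9.96 ± 0.11 (SD, n = 5 each), a difference of 1.48 ± 0.11 (SE, limma adjusted p = 1.46e-06). An exact permutation test (two-sided) gave p = 0.00794, the smallest it can give with 5 mice per genotype. The difference was larger than that of 99.4% of tested genes and lay between 1.38 and 1.55 under all alternatives run. An unnamed transcript on the opposite strand (AC167363.2) covers 7.68% of the exon bases of Cdkn1a, and the strand setting of the counting was not given in the sources used here.

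Ccng1, which encodes cyclin G1, a p53 target that works back on the MDM2 pathway, was not called. Its promoter window is the other one with a 1-mismatch match. The knock-out mice measured 15.13, 15.08, 15.15, 15.21 and 15.33, and the wild-types 15.58, 15.55, 15.82, 15.04 and 15.44. All wild-types but mouse 4 were above every knock-out. The difference was -0.31 ± 0.14 (SE, 95% interval -0.60 to -0.014, limma adjusted p = 0.161), and the exact permutation test gave p = 0.0556. Without wild-type mouse 4 the difference was -0.42 and was called (limma adjusted p = 0.0278). Ccng1 stayed uncalled in 17 of 20 alternatives.

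Neither Bax nor Bbc3, both of the mitochondrial pathway of apoptosis, passed the test. Bax, which encodes a protein that opens the outer mitochondrial membrane, measured 8.59, 8.37, 8.40, 8.67 and 8.49 in knock-outs and 8.27, 8.57, 8.42, 8.72 and 8.40 in wild-types. The groups were intermixed, with a difference of 0.027 and an interval from -0.20 to 0.26 (limma adjusted p = 0.894). A gene on the same strand, Gm45808, shares 12.2% of the Bax exon bases. Bbc3, which encodes PUMA, a BH3-only activator of cell death, was the lowest of the 10 genes in rlog: 5.79, 5.80, 5.53, 6.21 and 5.78 in knock-outs and 5.20, 5.29, 5.18, 6.01 and 5.50 in wild-types. Apart from wild-type mouse 4, every wild-type was below every knock-out. The difference was 0.39 ± 0.17 (SE, 95% interval 0.014 to 0.76, limma adjusted p = 0.165), with p = 0.0635 in the exact permutation test. Without wild-type mouse 4 it was 0.53 and was called (limma adjusted p = 0.0287). Bbc3 stayed uncalled in 16 of 19 alternatives.

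Eda2r encodes a receptor of the tumour necrosis factor receptor family that binds the A2 form of ectodysplasin. Its values were 12.19, 12.05, 11.95, 12.52 and 12.42 in knock-outs and 11.46, 11.15, 10.45, 10.53 and 10.84 in wild-types. The groups did not overlap, and the wild-types were spread more widely. The means were 12.22 ± 0.24 and 10.89 ± 0.42 (SD, n = 5 each), a difference of 1.34 ± 0.18 (SE, limma adjusted p = 2.54e-04, exact permutation p = 0.00794). The difference exceeded that of 99.3% of tested genes. It was 1.07 without wild-type mice 3 and 4 and 0.96 with the mean of the immediate-early genes in the fit, the lowest of the alternatives, and it was called in all of them. Eda2r is X-linked, and the Y-linked genes were detected in all 10 mice (mean level 9.52 to 10.62), with 0 of 4 called in limma and 0 of 4 at an unadjusted p under 0.05. With their mean in the fit the difference was 1.09. Eda, the gene of its ligand, lay between 5.73 and 6.22 in knock-outs and between 5.99 and 6.48 in wild-types, a difference of -0.31 that was not called (limma adjusted p = 0.143).

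Phlda3, whose product competes with AKT for membrane lipids, measured 13.59, 13.93, 13.69, 14.06 and 13.90 in knock-outs and 13.66, 13.64, 14.12, 13.96 and 13.30 in wild-types. The groups overlapped over their whole middle range, and the difference of 0.092 had an interval from -0.23 to 0.42 (limma adjusted p = 0.725). It was -0.016 without wild-type mouse 5, 0.19 without mouse 3 and 0.30 without mice 3 and 4, none of which was called. The sestrins are stress-induced proteins that restrain mTORC1, the kinase complex that drives growth. Sesn1 measured 9.98, 9.99, 10.55, 10.36 and 10.10 in knock-outs and 9.98, 9.99, 9.47, 9.58 and 10.25 in wild-types. Knock-out mice 3 and 4 were above all wild-types, and wild-type mice 3 and 4 were below all knock-outs. The difference was 0.34 ± 0.16 (SE, 95% interval 0.00046 to 0.68, limma adjusted p = 0.180), with p = 0.119 in the exact permutation test. Without wild-type mice 3 and 4 it was 0.12. Sesn2 measured 6.18, 6.63, 6.40, 6.36 and 6.17 in knock-outs and 6.37, 6.48, 6.66, 6.64 and 6.45 in wild-types. The ranges overlapped, and the difference was -0.17, with an interval from -0.43 to 0.080 (limma adjusted p = 0.366).

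**Figure D2:**
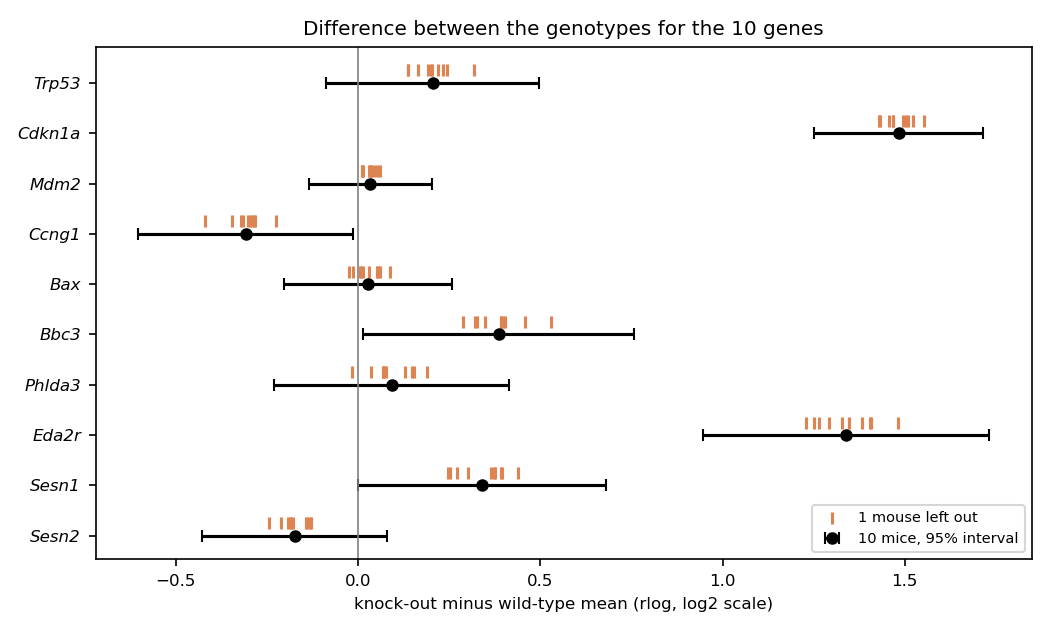
Difference between desmin knock-out and wild-type (log2 scale, x axis) for the 10 genes, with 95% confidence intervals from limma (n = 5 per genotype) and ticks for the value with each mouse left out. Cdkn1a at 1.48 and Eda2r at 1.34 stand clear of 0, and the other 8 lie between -0.31 and 0.39.

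The order of the levels differed slightly between the genotypes. Set per kilobase of exon on the log2 scale, the wild-type mean levels ran from Ccng1 (13.67) and Phlda3 (13.10) through Mdm2 (8.83), Eda2r (8.33), Cdkn1a (8.13), Sesn1 (7.86), Bax (7.82) and Trp53 (6.85) to Sesn2 (4.72) and Bbc3 (4.35). In the knock-outs, Eda2r (9.67) and Cdkn1a (9.61) stood above Mdm2 (8.86), and Bbc3 (4.73) stood above Sesn2 (4.55). The neighbours Sesn1 and Bax in the wild-types, and Eda2r and Cdkn1a in the knock-outs, were closer to each other than the SD of either gene between mice. So were Bbc3 and Sesn2 in the knock-outs, and Eda2r and Cdkn1a in the wild-types differed by less than the SD of Eda2r.

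**Figure D3:**
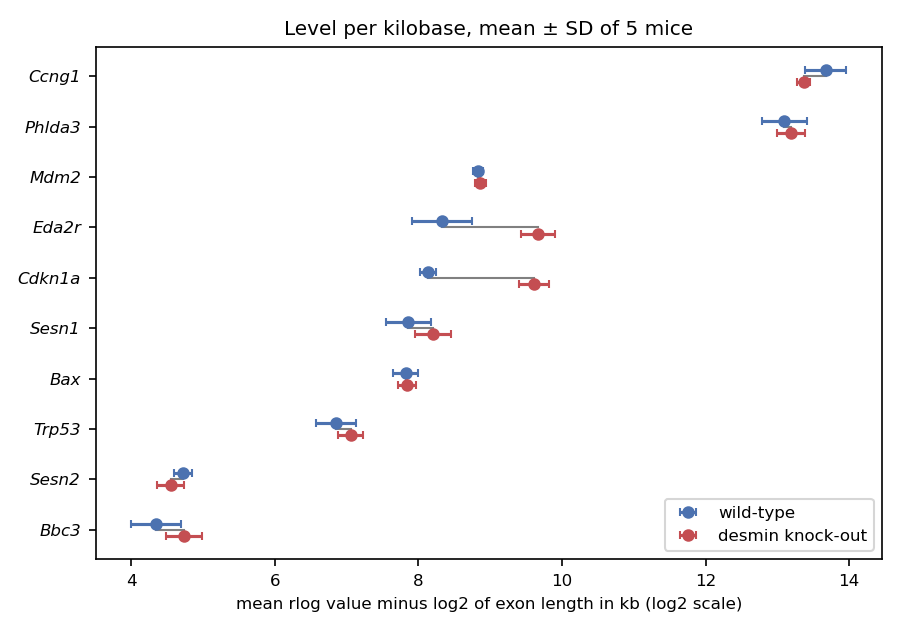
Mean level per kilobase of exon (log2 scale, x axis) of the 10 genes in wild-type and desmin knock-out mice, with the SD over 5 mice. Cdkn1a and Eda2r pass Mdm2 in the knock-outs, while Ccng1 and Phlda3 are highest in both genotypes.

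Within the genotypes, the 10 genes did not vary as 1 block. As a description over 10 mice, using deviations from the genotype means, Trp53 ran opposite to Ccng1 (r = -0.89, or -0.70 without wild-type mouse 4), and Bax ran with Bbc3 (r = 0.77, or 0.58 without that mouse). The correlation of Trp53 with Cdkn1a was -0.053 (0.25 without that mouse) and that of Cdkn1a with Eda2r was -0.13 (-0.27 without it). The values of -0.89 and 0.77 were the most negative and the most positive of all pairs of the 10 genes, so they are extreme by selection. Other pairs depended on single mice. Ccng1 with Eda2r went from 0.26 to 0.84 without wild-type mouse 3, and Mdm2 with Sesn1 from -0.54 to -0.92 without wild-type mouse 4. These mice share a sequencing table and a scaling, so the points are not free of common technical variation. The genes outside the lists whose deviations were most like those of Cdkn1a were Tgif1 (r = 0.90), Nfx1 (r = 0.89) and Sox6 (r = 0.86). They were picked as the highest among all such tested genes over only 10 mice, so these r values are high by selection. Of the 3 genes only Sox6 differed between the genotypes in limma, at -0.51 ± 0.079 (SE, adjusted p = 6.93e-04).

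The wider p53 and cell death network was listed as 148 genes besides the 10. Of these, 135 were tested, 16 were higher and 4 lower, with a median difference of 0.053. Over all tested genes, 7.7% were called higher and 5.99% lower. These shares are the background for the counts of called genes here and in each list below. They are not the background for counts at an unadjusted p under 0.05, in these lists or in the markers below. At least 3940 of the 14289 tested genes passed that limit. The share in each direction was not computed, so those counts are not a result about a list. Among 18 tested regulators of p53, 2 were higher and 1 lower (median 0.059). Cdkn2a, the locus of p16 and ARF, rose by 1.01 ± 0.15 (SE, limma adjusted p = 5.34e-04) from a low level, with 4.32 to 4.88 in knock-outs and 3.49 to 4.05 in wild-types. Trp63, a gene of the p53 family, rose by 0.77 (adjusted p = 0.00122 in limma). Hipk2, a kinase gene whose product phosphorylates p53, fell by 0.96 (adjusted p = 0.00125 in limma), with 9.81 to 10.06 in knock-outs and 10.22 to 11.32 in wild-types. Mdm4, the MDM2 relative that blocks p53, differed by 0.36 and was not called (adjusted p = 0.104 in limma), nor was Wrap53, the neighbour of Trp53 on the opposite strand (0.054).

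Among 39 tested genes of 44 other p53 targets, 6 were higher and 2 lower, with a median of 0.14. Gadd45a, a growth arrest and DNA damage gene that also responds to denervation of muscle, rose by 1.05 ± 0.20 (SE, limma adjusted p = 0.0029). With the immediate-early mean in the fit the difference was 0.86 and was not called (adjusted p = 0.0642 in limma). The same fit called 540 genes higher and 347 lower over the whole table, against 1100 and 856 without it. Sulf2, a heparan sulfate sulfatase gene, rose by 0.88. Tigar, which encodes a fructose bisphosphatase that restrains glycolysis, fell by 0.52 (adjusted p = 0.00458 in limma), with 12.10 to 12.32 in knock-outs and 12.36 to 12.83 in wild-types.

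Of 13 tested BCL2 family genes, Bok, which encodes a BAX-like protein, was the 1 called, at 0.57 (adjusted p = 0.0198 in limma, and up to 0.0554 with single knock-outs left out). Bak1, a partner of Bax in membrane opening, and Bcl2, which restrains both, were not called (-0.14 and 0.029). The Bak1 difference turned to 0.052 without wild-type mouse 3, its highest sample, and to 0.11 without mice 3 and 4. The median of the family was 0.029, and 2 genes were higher and 0 lower at an unadjusted p under 0.05. Of 18 caspase and apoptosome genes, 1 was higher and 0 lower (median 0.096). At an unadjusted p under 0.05, 2 of these were higher and 0 lower. The gene called was Birc5, which encodes survivin, an inhibitor of apoptosis needed for cell division. It rose by 0.67 ± 0.11 (SE, limma adjusted p = 9.90e-04) from a low level, with 4.30 to 4.60 in knock-outs and 3.64 to 3.96 in wild-types. Of 15 tested death receptor genes, Eda2r and Tnfrsf12a, the receptor gene of TWEAK, were higher and 0 were lower (median 0.053). At an unadjusted p under 0.05, 4 were higher and 1 lower. Tnfrsf12a rose by 0.83 (adjusted p = 0.0199 in limma), and this call was lost in 5 of 20 alternatives, among them the fit with the immediate-early genes (0.48, adjusted p = 0.347).

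Among 17 genes that work with the sestrins, 3 were higher and 0 lower, with a median of -0.15. At an unadjusted p under 0.05, 3 were higher and 2 lower. Prkaa1, which encodes a catalytic subunit of the energy sensor AMPK, rose by 0.87 ± 0.10 (SE, limma adjusted p = 7.65e-05). It lay between 10.27 and 10.42 in knock-outs and between 9.21 and 9.66 in wild-types. Sesn3, the third sestrin gene, rose by 0.57 (adjusted p = 0.00324 in limma), with 9.70 or more in every knock-out and 8.98 to 9.49 in wild-types. Seh1l, a nuclear pore and GATOR2 gene, rose by 0.30 at an adjusted p of 0.0421 in limma, a call that was lost in 13 of 20 alternatives. Among 19 cyclin-dependent kinase inhibitors and G1 genes, 2 were higher and 1 lower (median 0.054). Rb1, the retinoblastoma gene that p21 keeps in its active form, rose by 0.61 (adjusted p = 0.00149 in limma), and Cdk6, a G1 kinase gene, by 0.78 (adjusted p = 0.00723 in limma, and 0.176 with a difference of 0.51 with the immediate-early genes in the fit). Cdkn1c, which encodes the inhibitor p57, fell by 0.48 (adjusted p = 0.0189 in limma, and 0.292 with a difference of -0.32 with the immediate-early genes in the fit).

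**Figure D4:**
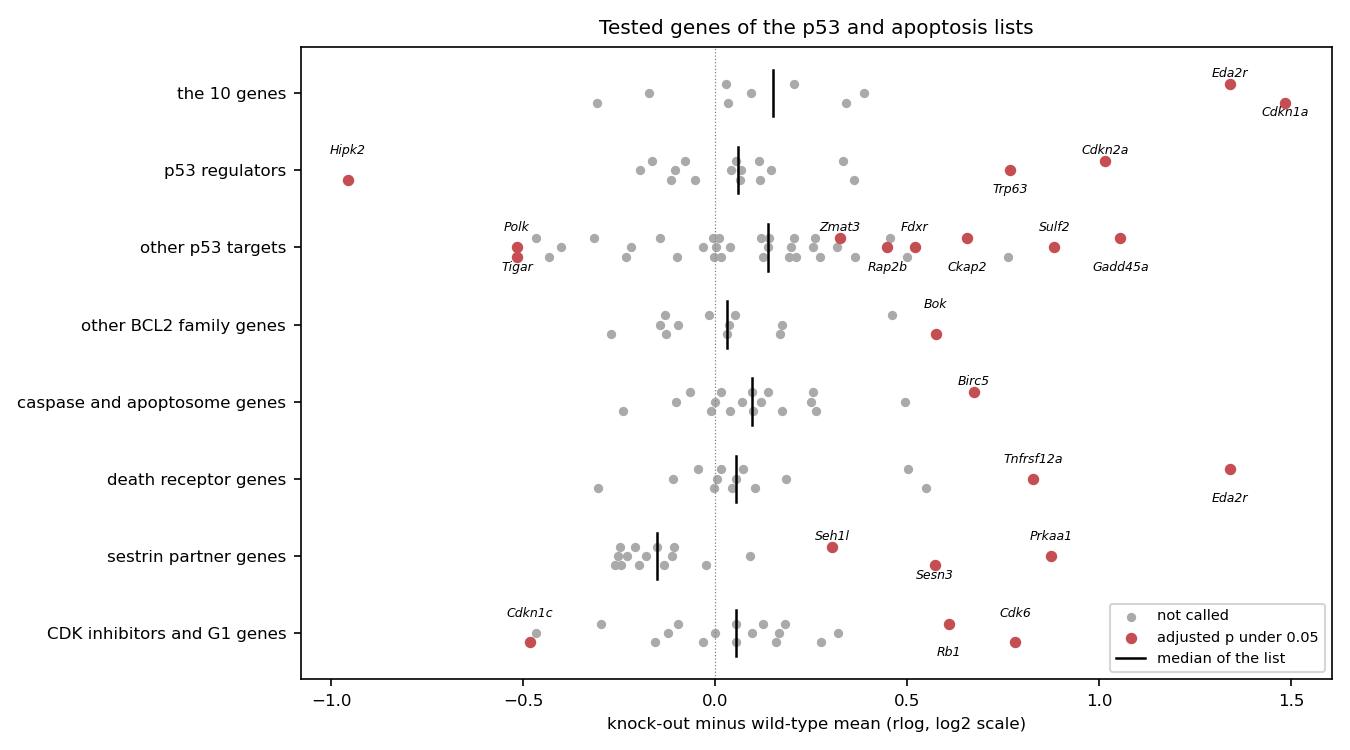
Difference between desmin knock-out and wild-type (log2 scale, x axis) for every tested gene of the 10 genes and of each wider list, coloured points passing an adjusted p under 0.05 in limma and bars showing the list median. The medians lie between -0.15 and 0.15, and the called genes are mostly to the right of 0. In the wider lists 16 were called higher and 4 lower in this fit, against 26 and 18 with sample weights. Over all tested genes 7.7% were called higher and 5.99% lower in this fit.

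Markers of some other cells differed between the genotypes too, while over all tested genes 7.7% were called higher and 5.99% lower. Differences of the satellite cell markers ran from 0.015 to 0.89, with a median of 0.15. These markers (1 of 4 called higher) had a summed level of 9.60 to 9.75 in knock-outs and 8.48 to 9.32 in wild-types. Fibroblast markers (3 of 5 higher) had 13.54 to 14.14 and 13.05 to 14.07. Endothelial markers (4 of 5 lower) had 11.56 to 12.05 and 12.05 to 12.45, and erythroid markers (2 of 5 lower) 11.49 to 12.09 and 12.00 to 13.37. Skeletal muscle markers (1 of 7 called lower) had 22.05 to 22.24 and 22.27 to 23.24. The knock-out mean was lower for 6 of these 7 and higher for 1, with a median difference of -0.42. Macrophage markers (0 of 8 called in limma, 0 at an unadjusted p under 0.05) had 11.11 to 11.56 and 10.95 to 11.46. Of 4 cycling cell markers, 3 were tested and 0 called in limma, although all 3 were higher at an unadjusted p under 0.05, and their summed level was 5.85 to 7.0 in knock-outs and 5.67 to 5.96 in wild-types. Markers of smooth muscle and pericytes, Schwann cells and adipocytes had 0 called in limma, and 1 smooth muscle marker was lower at an unadjusted p under 0.05. None of 6 T cell markers reached the level for testing. No marker gene was at 0 in all mice. Immediate-early genes, which respond within minutes to stimulation or handling of tissue, were higher for 6 of 14, with mean levels of 8.36 to 8.67 in knock-outs and 7.52 to 8.61 in wild-types. Their part in the differences of Cdkn1a, Eda2r and the wider lists was not tested beyond the fits with the immediate-early mean.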

How the data were processed

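Stranded mRNA libraries of gastrocnemius were sequenced for 10 mice, 5 of each genotype. Per the submitters' processing notes, reads were trimmed with cutadapt 2.5, aligned to GRCm38 with STAR 2.5.4a and counted with featureCounts of Subread 1.6.1. The authors deposited DESeq2 regularised log values (log2 scale), 1 column per mouse. The sample titles tie each column to 1 mouse, while the methods of the study speak of pooled RNA, so p-values measure the spread between these samples, taken as mice. Counts were not used here, and depth per library is therefore unknown.

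Groups were taken from the sample titles. Only genes whose mean reached log2 of 10 were fitted, using limma 3.58.1 (R 4.3.3, prior variance following the mean, all 10 mice) and adjusted by Benjamini-Hochberg over all 14289. Single genes were also tested by exact permutation. The fit was tested on simulated data: of 200 planted genes, 38.8% at 0.5, 91.0% at 1 and 100% at 2 log2 units were recovered, with 6.71% of calls not planted. The simulated noise of a gene had the same SD in every mouse. In the real data the root mean square deviation from the genotype mean was 0.12 to 0.18 in knock-outs and 0.41 in wild-type mouse 3. The simulated rates therefore hold for even noise and were not measured for mice as uneven as these. Symbols were matched for 54165 of 54232 genes through the GENCODE mouse annotation, which also gave exon lengths. Promoter sequence came from RefSeq (GRCm38.p6), where all 10 genes had a window. The 10 genes and all lists were chosen with earlier results of these data known. Some list genes are not reported here and were left out of the lists and their counts. Named genes were the 10, Des, fixed partners (Mdm4, Sesn3, Bak1, Bcl2, Eda, Wrap53), up to 3 called genes with the smallest adjusted p per list, and the 3 genes most like the most clearly called of the 10. Alternatives changed the expression limit, scaling, prior variance, sample weights, replicate block, covariates, threshold and mice included.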

Additional observations from a re-analysis of the deposited data

Results flagged for a closer look

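Single mice stood far from the rest of their group in 7 of 62 groups checked (Dixon's test at 95%), where chance gives about 3.1. None of the 10 genes was among them. Wild-type mouse 3 was highest for Des (17.74) and for Bak1 (10.39) and lowest for Mdm4 (10.30). Knock-out mouse 3 was lowest for Bcl2 (9.16), knock-out mouse 1 was lowest for Bak1 (9.28), wild-type mouse 4 was lowest for Rb1 (9.25), and wild-type mouse 5 was lowest for Tigar (12.36).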

How the results depend on the processing

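Cdkn1a and Eda2r were called higher under every alternative run, and no called gene of the 10 changed sign. With sample weights, in which wild-type mouse 3 had a weight of 0.10 and mouse 4 of 0.27, 4 of the 10 genes were higher (Cdkn1a, Eda2r, Bbc3, Phlda3) and 1 lower (Ccng1), and in the wider lists 26 were higher and 18 lower. Leaving out 1 mouse gave 2 to 3 of the 10 higher, 0 to 1 lower, and 10 to 18 higher and 3 to 8 lower in the wider lists, against 16 and 4 with all mice. The count of 3 and the 1 lower gene came without wild-type mouse 4, the 10 without knock-out mouse 4, and the 8 without wild-type mouse 3. Without wild-type mice 3 and 4 together, an alternative chosen after seeing the data, 3 of the 10 were higher, 1 was lower, and 23 and 14 of the wider lists were. With the immediate-early mean as a covariate, 9 of the wider lists were higher, and an adjusted p under 0.01 gave 9. The cause was not tested. The replicate numbers did not pair the mice (correlations of deviations -0.219 to 0.067, own number best for 0 mice), and with the replicate block 2 of the 10 were higher and 0 lower, and 12 and 4 of the wider lists. Over all tested genes, leaving out wild-type mice 3 and 4 gave 1677 higher and 1717 lower calls, leaving out wild-type mouse 3 gave 1335 and 1161, sample weights gave 2093 and 2127, and the immediate-early covariate 540 and 347. Median centring gave 942 and 979 and quantile normalization 1090 and 1049, against 1100 and 856 as deposited. Depth cannot be read from rlog values, and the shrinkage of low genes such as Bbc3 and Sesn2 limits what could be detected there.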
